A study of Mus musculus with 16 samples.

Results

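The enteroendocrine hormone and granule genes were 10 genes of 41740 listed for each library. They were chosen by name, with earlier results of these data known. They were the hormone genes Gcg, Gip, Cck, Sct, Nts, Pyy and Sst, the serotonin synthesis enzyme Tph1, and the chromogranins Chga and Chgb. All 10 had enough counts to be tested, among 15267 genes tested in all. RNA of the whole wall of the ileum was sequenced in 16 libraries from mice of the STAM model, in which male pups receive streptozotocin (200 ug per mouse on day 2) and then a high-fat diet (from week 4), and become diabetic with fatty liver disease. All mice carried the floxed insulin receptor allele and were 20 weeks old. Control-STAM-nonINS mice (n = 4) lacked the Cre transgene and received no insulin. Control-STAM-INS mice (n = 6) had the same genotype and received insulin degludec, a long-acting insulin, in 2 injections per day from week 6, up to 12 U per kg. ieIRKO-STAM-INS mice (n = 6) received the same insulin and carried Villin-Cre, which deletes the insulin receptor in intestinal epithelial cells and not in muscle, nerve or immune cells of the wall. No ieIRKO group without insulin was analysed here, so a comparison of ieIRKO-STAM-INS with Control-STAM-nonINS changes genotype and insulin together, and an effect of insulin within the knockout was not measured.

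Enteroendocrine cells are scattered single cells of the gut epithelium that sense the contents of the lumen and release hormones from granules. L cells of the distal small intestine make proglucagon (Gcg), the source of the glucagon-like peptides, with peptide YY (Pyy) and often neurotensin (Nts). Enterochromaffin cells make serotonin through tryptophan hydroxylase 1 (Tph1), and the chromogranins Chga and Chgb are granule proteins found in many of these cells.

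Libraries held 13288018 to 22215382 counts each, and the 10 genes together took 0.0216% to 0.0548% of them. Levels are given as CPM, which are counts scaled to the library total and normalised by the trimmed mean of M values (TMM). Insr, the targeted gene, had 88.3 to 116 CPM without insulin, 49.9 to 76.1 CPM in Control-STAM-INS and 57.5 to 90.4 CPM in the libraries labelled ieIRKO-STAM-INS. Its total count therefore did not separate the knockout from its insulin-treated controls (log2 fold change 0.10 ± 0.13 SE, edgeR adjusted p = 0.805). The gene total includes exons outside the deleted part and cells without Cre, so it checks neither genotype label. Other genes did differ between these groups. Between the insulin-treated genotypes 4 of 5 Paneth cell genes passed, all lower in the knockout, where 0.223% of all tested genes passed, 0.183% lower. The 4 included the lysozyme gene Lyz1 (-2.31 ± 0.18 SE on the log2 scale, adjusted p = 1.2e-06) and Ang4 (-1.64 ± 0.20, adjusted p = 0.0004), both without overlap. The Itln1 call (adjusted p = 0.0234) was lost without any of 9 of 12 libraries and held under 5 of 9 other settings. The Nupr1 call (adjusted p = 0.0093) held under 6 of 9. In RNA of a whole wall, fewer cells of a type and less RNA per cell cannot be told apart.

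The 250 bases before the RefSeq start site are shown for Tph1, Chga and Gcg, 3 of the 4 genes that were lower with insulin, and were chosen after the values were seen. For Chgb, the fourth, and for Sst, which did not pass the test, 30 bases around an 8-base palindrome are shown. Capitals mark TGACG on either strand, the core of the cyclic AMP response element, and the palindrome TGACGTCA holds it on both strands. Sequences are from RefSeq on GRCm38, written 5′ to 3′ along the gene.
Tph1 (chr7:46672538-46672787, minus strand): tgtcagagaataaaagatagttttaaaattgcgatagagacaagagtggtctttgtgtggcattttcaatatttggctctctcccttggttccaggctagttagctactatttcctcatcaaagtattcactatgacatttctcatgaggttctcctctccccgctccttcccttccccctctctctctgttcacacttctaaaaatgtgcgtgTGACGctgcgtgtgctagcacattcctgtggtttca
Chga (chr12:102554691-102554940, plus strand): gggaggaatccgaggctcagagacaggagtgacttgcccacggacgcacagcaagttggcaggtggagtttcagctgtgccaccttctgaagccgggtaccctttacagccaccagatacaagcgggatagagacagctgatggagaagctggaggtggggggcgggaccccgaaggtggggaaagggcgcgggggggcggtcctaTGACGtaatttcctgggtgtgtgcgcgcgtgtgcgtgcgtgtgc
Gcg (chr2:62483654-62483903, minus strand): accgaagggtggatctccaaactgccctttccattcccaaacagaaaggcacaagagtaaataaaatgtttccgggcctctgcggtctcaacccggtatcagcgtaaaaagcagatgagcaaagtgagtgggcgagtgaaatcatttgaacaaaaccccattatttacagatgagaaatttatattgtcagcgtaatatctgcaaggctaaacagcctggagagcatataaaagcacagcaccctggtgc
Chgb (chr2:132781559-132781588, plus strand): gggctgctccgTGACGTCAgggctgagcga
Sst (chr16:23890874-23890903, minus strand): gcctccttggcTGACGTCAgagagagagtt
TGACG was found before 7 of the 12 RefSeq start sites of the 10 genes, and in 17.8% of all 32851 promoters of the same length. The palindrome was found in Chgb and Sst and in 1.55% of all promoters. It lay 72 bases before the RefSeq start site of Chgb and 48 bases before that of Sst. GENCODE places the start of both genes further upstream, and there these 30 bases lie inside an exon of the gene itself. Tph1 has another start site, not printed, with 3 matches in its window. Gcg, which was lower with insulin, held neither within its 250 bases, and Sst, which did not pass the test, held the palindrome. A match to these letters is a description.

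The effect of insulin was examined first in control mice, Control-STAM-INS against Control-STAM-nonINS. Tph1, Chgb, Chga and Gcg were lower with insulin and passed the test, and the other 6 genes did not. This was 4 of 10, all lower, where 10.5% of all tested genes passed in either direction and 6.76% were lower. Because the 10 genes were chosen with earlier results of these data known, these shares are a description and not a test of the set. The median log2 fold change was -0.66 over the 10 genes and -0.0043 over all tested genes. Tests were edgeR quasi-likelihood F tests over all 3 groups with Benjamini-Hochberg adjustment over all tested genes.

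**Figure D1:**
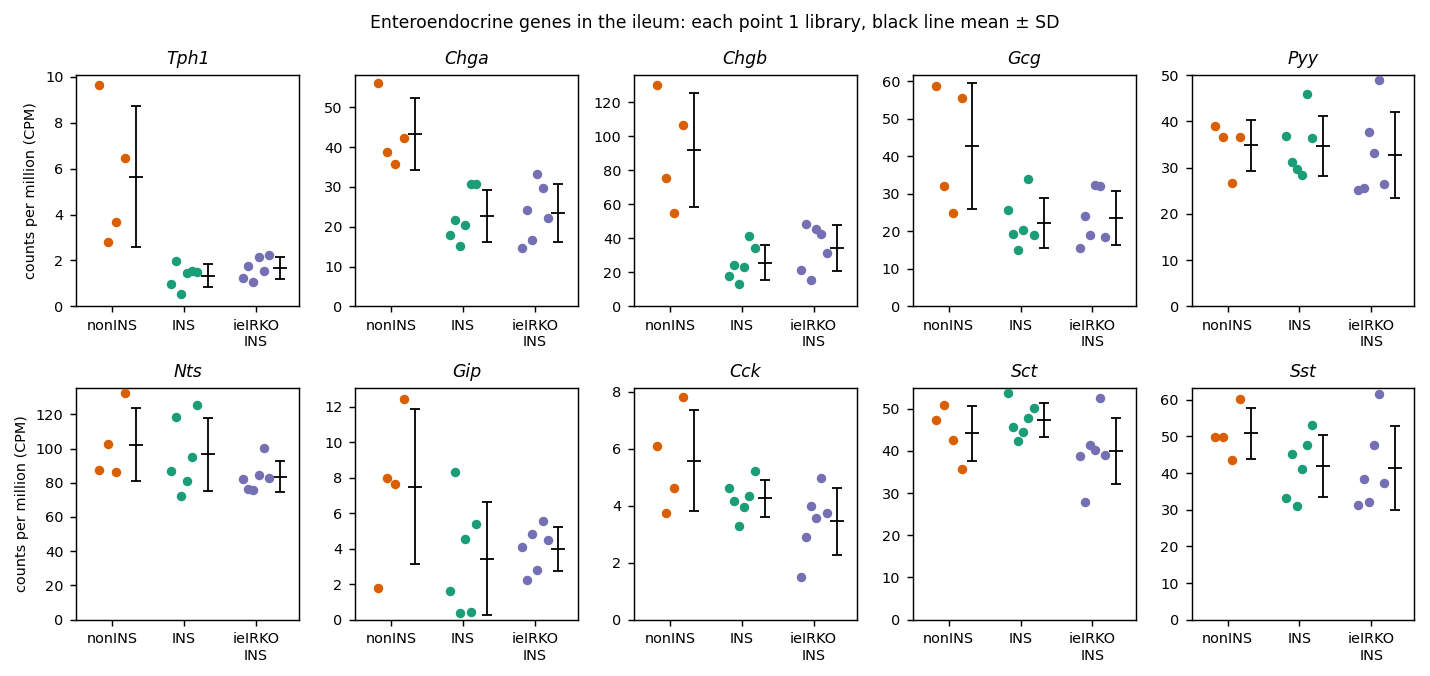
CPM of the 10 genes in each of 16 libraries (points, by group), with mean and SD in black. The 4 nonINS libraries lie above all 6 Control-STAM-INS libraries for Tph1, Chga and Chgb, while Pyy, Nts and Sct overlap.

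Tph1, the rate-limiting enzyme of serotonin synthesis in enterochromaffin cells, lies on chromosome 7 (46644641 to 46672537, minus strand). Its level was 9.64, 2.82, 3.69 and 6.47 CPM in the 4 nonINS libraries. In Control-STAM-INS the lowest, median and highest values were 0.539, 1.48 and 1.96 CPM, and in ieIRKO-STAM-INS 1.05, 1.64 and 2.23 CPM. Every insulin-treated library, of either genotype, lay below every library without insulin. Tph1 was 4.29-fold lower in Control-STAM-INS (log2 fold change -2.10 ± 0.34 SE, edgeR adjusted p = 0.0010) and 3.41-fold lower in ieIRKO-STAM-INS (-1.77 ± 0.34, adjusted p = 0.0028). It was a scarce transcript, with 9 to 148 counts per library.

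Chgb (chromosome 2, 132781278 to 132795079, plus strand) encodes chromogranin B, a granule protein. It stood at 130, 75.7, 54.8 and 107 CPM without insulin. The lowest, median and highest values were 12.9, 23.9 and 41.1 CPM in Control-STAM-INS and 15.5, 37.1 and 48.4 CPM in ieIRKO-STAM-INS. Neither insulin-treated group overlapped the untreated one. Chgb was 3.58-fold lower in Control-STAM-INS (log2 fold change -1.84 ± 0.36 SE, edgeR adjusted p = 0.0054) and 2.69-fold lower in ieIRKO-STAM-INS (-1.43 ± 0.36, adjusted p = 0.0174).

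Chga (chromosome 12, 102554969 to 102565028, plus strand), the gene of chromogranin A and the usual marker of enteroendocrine cells, had 56.1, 38.7, 35.8 and 42.2 CPM without insulin. It had 15.1, 21.1 and 30.7 CPM at the lowest, median and highest in Control-STAM-INS, and 14.6, 23.3 and 33.1 CPM in ieIRKO-STAM-INS. Again no insulin-treated library reached the lowest untreated one. The fall was 1.90-fold in Control-STAM-INS (log2 fold change -0.92 ± 0.23 SE, edgeR adjusted p = 0.0197) and 1.84-fold in ieIRKO-STAM-INS (-0.88 ± 0.23, adjusted p = 0.0214). Without nonINS replicate 1 both calls were lost, at adjusted p = 0.0812 and 0.0868. These 3 genes made up all members whose groups did not overlap (3 of 10, where 10.6% of all tested genes had non-overlapping groups, 6.23% lower).

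Gcg (chromosome 2, 62474530 to 62483650, minus strand) was measured at 58.7, 32.1, 24.8 and 55.5 CPM without insulin. Control-STAM-INS had 14.9, 19.8 and 33.9 CPM at the lowest, median and highest, and ieIRKO-STAM-INS had 15.6, 21.6 and 32.2 CPM. The groups overlapped, and 4 of 6 insulin-treated controls lay below every untreated library. The difference was 1.93-fold (log2 fold change -0.95 ± 0.28 SE, edgeR adjusted p = 0.0398). This call lay near the threshold: it was lost on leaving out any of 7 of 10 libraries, up to adjusted p = 0.146 without nonINS replicate 1, and under 5 of 9 other settings. In ieIRKO-STAM-INS Gcg was 1.81-fold lower (log2 fold change -0.86 ± 0.28 SE) and did not pass, at adjusted p = 0.052.

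Pyy and Nts, the other products of distal L cells, did not pass. Pyy stood at 39.1, 36.6, 26.7 and 36.7 CPM without insulin, 28.3 to 45.9 CPM (median 33.8) in Control-STAM-INS and 25.3 to 48.9 CPM (median 29.8) in ieIRKO-STAM-INS. Its log2 fold change with insulin in controls was -0.0011, with a 95% interval of -0.39 to 0.39. Nts, which encodes neurotensin, had 87.7, 103, 86.3 and 132 CPM without insulin. It had 72.2 to 125 CPM (median 91.0) in Control-STAM-INS and 75.8 to 100 CPM (median 82.4) in ieIRKO-STAM-INS. The Nts interval in controls was -0.40 to 0.23 around -0.085 on the log2 scale, so that these intervals leave out falls of the size seen for Tph1 and Chgb.

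Gip, Cck and Sct are classically assigned to K, I and S cells of the upper small intestine. Sct was not scarce in this ileum, at 67.9 CPM per kilobase of exons over the 16 libraries, against 6.78 for Gip and 3.29 for Cck. Gip, the incretin of K cells, was measured at 1.81, 7.998, 7.66 and 12.5 CPM without insulin and at 0.359 to 8.32 CPM (median 3.07) in Control-STAM-INS, where 2 libraries had 6 counts each. Its values overlapped throughout, with 2.22 to 5.56 CPM in ieIRKO-STAM-INS, and its log2 fold change of -1.14 ± 0.67 SE in controls (adjusted p = 0.305) had an interval of -2.57 to 0.28. Cck, the gene of cholecystokinin, had 6.09, 3.76, 4.64 and 7.83 CPM without insulin, 3.29 to 5.23 CPM in Control-STAM-INS and 1.498 to 4.98 CPM in ieIRKO-STAM-INS. Its log2 fold change was -0.39 ± 0.25 SE in controls (adjusted p = 0.356) and -0.69 ± 0.25 in ieIRKO-STAM-INS (adjusted p = 0.0766). Sct, the gene of secretin, had 47.4, 50.9, 42.7 and 35.7 CPM without insulin, 42.4 to 53.7 CPM in Control-STAM-INS and 28.0 to 52.5 CPM in ieIRKO-STAM-INS. It was the 1 member whose fitted change in controls was positive, at 0.10 ± 0.13 on the log2 scale (adjusted p = 0.681). This sign turned when libraries were scaled to epithelial counts.

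Sst encodes somatostatin, the hormone of D cells, which inhibits release from other endocrine cells. Its level was 49.9, 49.7, 43.5 and 60.2 CPM without insulin, 31.1 to 53.0 CPM in Control-STAM-INS and 31.3 to 61.7 CPM in ieIRKO-STAM-INS. The groups overlapped. The log2 fold changes were -0.28 ± 0.18 SE (adjusted p = 0.366) in controls and -0.29 ± 0.18 (adjusted p = 0.30) in ieIRKO-STAM-INS. In a fit that also took replicate number as a block, Sst passed in both (adjusted p = 0.039 and 0.0266).

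Insulin-treated mice of the 2 genotypes were then compared, ieIRKO-STAM-INS against Control-STAM-INS. This contrast gives levels under insulin only and does not measure whether the receptor changed the effect of insulin. None of the 10 genes passed, and none had an unadjusted p under 0.05. DESeq2 and limma voom also called 0. Over all genes 0.223% passed, and 11.3% had an unadjusted p under 0.05. The fitted log2 differences ran from -0.30 for Cck to 0.41 for Chgb. The 95% interval of the difference was -0.29 to 1.12 for Chgb, -0.37 to 1.02 for Tph1, -0.41 to 0.50 for Chga and -0.45 to 0.63 for Gcg. A missed threshold does not show that the genotypes were alike, and the Tph1 and Chgb intervals still hold rises of about the size of 1 log2 unit. Sct had the smallest unadjusted p of the 10 (0.0525), with 5 of 6 ieIRKO-STAM-INS libraries below every Control-STAM-INS library.

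Against the untreated controls, Tph1, Chgb and Chga were lower in ieIRKO-STAM-INS, 3 of 10 where 13.3% of all tested genes passed, 7.59% lower. The same 3 did not overlap the untreated group, as did 8.56% of all tested genes, 4.76% lower. This comparison and the one in control mice share the 4 untreated libraries, so their values are given side by side and one does not support the other. Without nonINS replicate 1, Chgb (adjusted p = 0.0686) and Chga no longer passed, and Tph1 did.

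**Figure D2:**
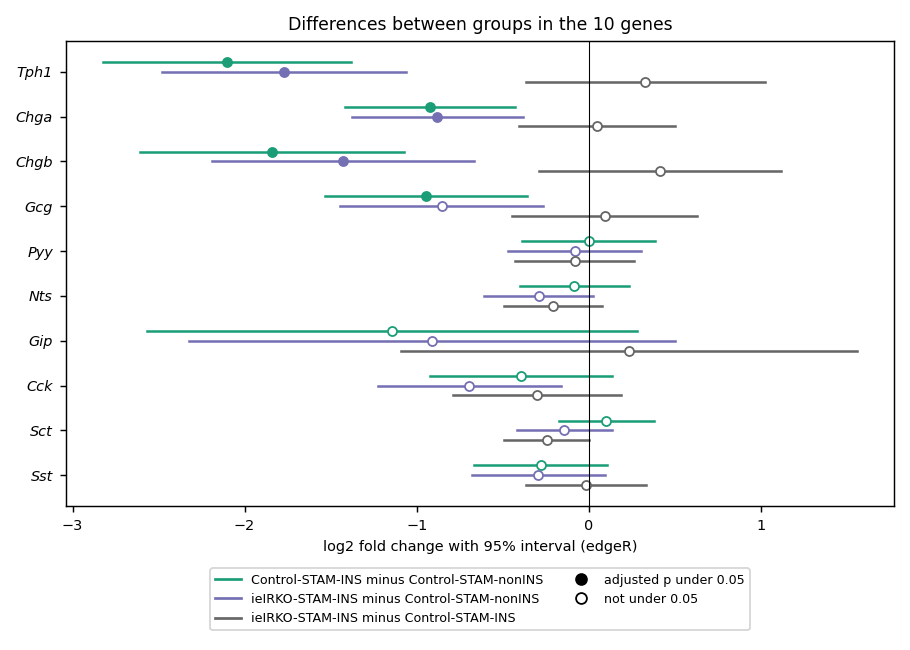
log2 fold change of each gene (point) with its 95% interval (line) in the 3 comparisons, filled where the adjusted p was under 0.05. Tph1, Chga and Chgb are filled in both comparisons with the untreated group, and all points of the genotype comparison are open.

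**Figure D3:**
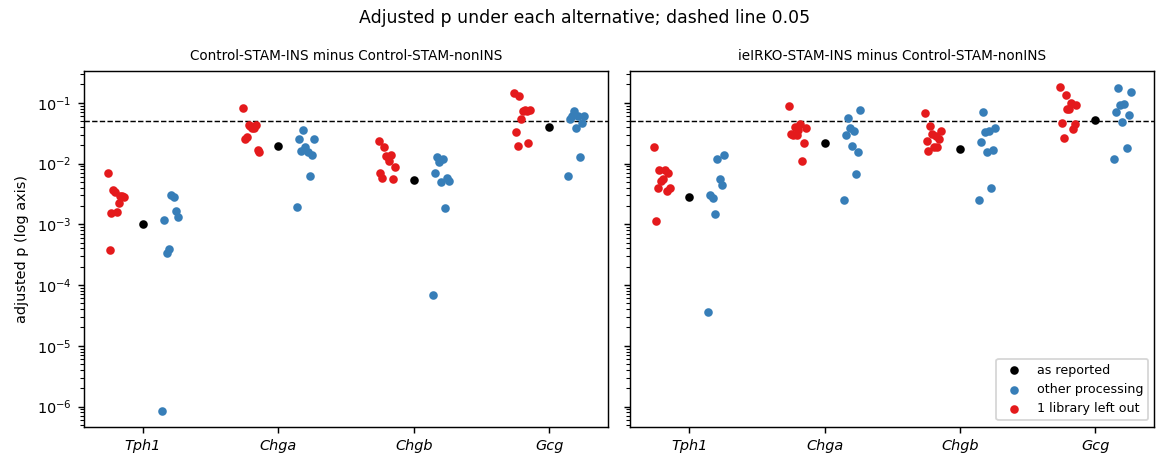
Adjusted p (log axis) of the 4 genes lower with insulin as reported (black), under other processing (blue) and with 1 library left out (red), in both comparisons with the untreated group. Tph1 stays below the dashed line at 0.05 throughout, and Gcg lies on either side of it.

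Reg4, a secreted lectin found in enteroendocrine and other secretory cells, was lower in both insulin-treated groups than in the untreated controls. It had 115, 62.8, 79.4 and 79.7 CPM without insulin, 12.9 to 28.6 CPM in Control-STAM-INS and 12.2 to 34.2 CPM in ieIRKO-STAM-INS, with no overlap. Its log2 fold change was -2.01 ± 0.28 SE (adjusted p = 0.00051) in controls and -1.94 ± 0.28 (adjusted p = 0.00065) in ieIRKO-STAM-INS. It was the 1 of 8 tested genes in the list of other hormones and peptides to pass in either comparison, where 10.5% of all tested genes passed in controls and 13.3% in ieIRKO-STAM-INS against the untreated group.

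The counts in the next lists stand beside the same 10.5% and 13.3%. Of 16 prohormone processing and granule genes, 1 passed in controls: Pcsk1, the prohormone convertase that cuts proglucagon into its peptides, at -0.58 ± 0.15 SE on the log2 scale (adjusted p = 0.0185). It passed in ieIRKO-STAM-INS too, at -0.50 ± 0.15 (adjusted p = 0.0328). The list's median log2 fold change in controls was -0.12. Of 14 tested transcription factors of enteroendocrine cells, 1 passed in controls, Neurod1, which drives their differentiation (-1.15 ± 0.29, adjusted p = 0.0173), and 1 in ieIRKO-STAM-INS, Mnx1 (-0.89 ± 0.29, adjusted p = 0.0476). Mnx1 had nearly the same value in controls (-0.90 ± 0.29, adjusted p = 0.0524), where it missed the threshold, and Neurod1 was at -0.55 ± 0.29 in ieIRKO-STAM-INS (adjusted p = 0.207). The medians of this list were -0.38 and -0.46. Among 11 tested nutrient sensors only Trpm5, a cation channel also found in tuft cells, passed, and it was higher (0.59 ± 0.17, adjusted p = 0.0334 in controls, and 0.75 ± 0.17, adjusted p = 0.0074 in ieIRKO-STAM-INS). Trpm5 was on the tuft cell list as well.

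Among 18 tested receptors and enzymes that remove the hormones, Npy2r, a receptor for peptide YY, was lower in controls (-1.02 ± 0.32 SE, adjusted p = 0.0495). Slc6a4, the serotonin transporter, was lower in ieIRKO-STAM-INS (-0.69 ± 0.20, adjusted p = 0.0337) and not called in controls (-0.60 ± 0.20, adjusted p = 0.0692). Maoa, which breaks down serotonin, was lower in ieIRKO-STAM-INS (-0.65 ± 0.18, adjusted p = 0.026). No gene of these 5 lists passed between the genotypes. Their most abundant genes there, which did not pass, were Foxa1, Slc5a1, Reg4, Cpe and Dpp4, with log2 fold changes of -0.18, -0.26, 0.07, -0.079 and -0.35. Several of these calls rested on single libraries. In controls the call was lost without any of 8 of 10 libraries for Npy2r and 5 for Trpm5. The Neurod1 call was lost without nonINS replicate 1 (adjusted p = 0.0628) or 4 (0.0625), and the Pcsk1 call without nonINS replicate 1 (0.10). In ieIRKO-STAM-INS it was lost without any of 7 of 10 libraries for Mnx1 and Slc6a4, 6 for Maoa and 4 for Pcsk1. Other processing settings ended some of these calls as well. In ieIRKO-STAM-INS Mnx1 was called under 3 of 9, Pcsk1 under 5, Slc6a4 under 6, Maoa under 7 and Trpm5 under 8. In controls Npy2r was called under 4 of the 8 that tested it and Trpm5 under 7 of 9.

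Markers of other cells that could hold these transcripts were set beside them. Of 11 mast cell genes, 3 were tested. Tpsab1 was at 0 in every library and the others that define the type, Cpa3, Mcpt1, Mcpt4, Tpsb2, Cma1, Fcer1a and Ms4a2, averaged under 1 CPM in each group. So did the protease Mcpt2, which was tested, at 0.224 CPM without insulin and 0.439 CPM in Control-STAM-INS (log2 fold change 1.14, adjusted p = 0.432). The summed level of this list was 34.9 to 47.0 CPM without insulin and 31.0 to 43.0 CPM with it in controls. It was mostly Kit (mean 36.8 CPM without insulin), which did not pass, so the sum describes Kit more than mast cells. Hdc, which makes histamine in mast and enteroendocrine cells, was lower (-1.31 ± 0.33 SE, adjusted p = 0.0172). Enteric neurons also make Vip, which was lower in both insulin-treated groups, at -1.05 ± 0.23 (adjusted p = 0.0091) in controls, and Ret, which was higher there (0.58 ± 0.16, adjusted p = 0.0293). With other processing in controls, Ret was called under 7 of 9 settings (adjusted p up to 0.311) and Hdc under 7 of the 8 that tested it (up to 0.0662). The Ret call was lost without any of 6 of 10 libraries and the Hdc call without nonINS replicate 4 (adjusted p = 0.0855). Without that library the Vip call in ieIRKO-STAM-INS was lost too (adjusted p = 0.0555), and it held under 5 of 9 other settings (adjusted p up to 0.0719). The other 9 of 11 tested neuronal genes did not pass in controls. None of 6 pancreatic islet genes had enough counts to be tested. Ins1 and Slc30a8 were at 0 in every library, the highest count of any islet gene was 19, and their summed level was at most 1.05 CPM without insulin, 1.70 CPM in Control-STAM-INS and 0.885 CPM in ieIRKO-STAM-INS. Of 8 pancreatic acinar genes 5 were at 0 in every library, and 1 was tested. This was Cela1, an elastase, which was lower in Control-STAM-INS (-0.89 ± 0.18 SE, adjusted p = 0.0042) and in ieIRKO-STAM-INS (-0.84 ± 0.18, adjusted p = 0.0053).

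Of 6 duodenal and jejunal genes 4 were tested, and 1 passed in controls. Their summed level was 70.8 to 162 CPM without insulin, 19.997 to 62.5 CPM in Control-STAM-INS and 22.7 to 53.3 CPM in ieIRKO-STAM-INS. The gene that passed was Fabp1, a fatty acid binding protein of the upper small intestine, with a mean of 85.0 CPM without insulin and 14.3 CPM in Control-STAM-INS (-2.58 ± 0.57 SE on the log2 scale, adjusted p = 0.0117). It passed in ieIRKO-STAM-INS too, with a mean of 17.8 CPM (-2.26 ± 0.56, adjusted p = 0.0181), a call lost without nonINS replicate 3 (0.0505). With a replicate block neither call held (adjusted p = 0.0659 in controls and 0.0679 in ieIRKO-STAM-INS). Adh6a (-0.46, adjusted p = 0.377), Lct (-1.81, adjusted p = 0.223) and Gata4 (0.026, adjusted p = 0.979) did not pass, and the untested Onecut2 averaged 0.17 CPM without insulin and 0.38 CPM with it. The 6 ileum genes summed to 8227 to 11730 CPM without insulin, 6783 to 9765 CPM in Control-STAM-INS and 5453 to 9455 CPM in ieIRKO-STAM-INS. None of them passed in controls, and Fabp6, the ileal bile acid binding protein, was lower in ieIRKO-STAM-INS (-0.59 ± 0.18 SE, adjusted p = 0.0338). This call was lost without any of 6 of 10 libraries and held under 6 of 9 other settings (adjusted p up to 0.0957). Summed epithelial markers were 10044 to 17343 CPM (median 16475) without insulin, overlapping the 14995 to 17729 CPM (median 17040) of Control-STAM-INS. Of these 8 genes 1 passed in controls, the keratin Krt18, which was lower without overlap (-0.50 ± 0.13 SE, adjusted p = 0.0169). That call was lost without nonINS replicate 1 or 3 (adjusted p up to 0.0601). The part of these genes in the fall of Tph1, Chgb, Chga and Gcg was not tested. In ieIRKO-STAM-INS the summed B cell level was 24.0 to 354 CPM (median 43.7), against 17.3 to 29.1 CPM (median 20.9) in Control-STAM-INS. None of the 4 B cell genes passed between the genotypes.

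The members were ordered by level per length, as CPM per kilobase of merged exons. Nts came first at 74.6 over 16 libraries, followed by Sct (67.9), Sst (61.0) and Pyy (53.9). Gcg (18.7), Chgb (16.6), Chga (10.2) and Gip (6.78) followed. Cck (3.29) and Tph1 (0.411) were last. Nts lay above Sct in 10 of 16 libraries and Gcg above Chgb in 11 of 16, so those neighbours were not clearly apart. Sct lay above Sst, Sst above Pyy, Chga above Gip and Gip above Cck in 12 of 16 each, and Chgb above Chga in 13. Pyy lay above Gcg and Cck above Tph1 in 16 of 16. Without insulin Chgb lay above Gcg, and in both insulin-treated groups below it, while the top 4 places held Nts, Sct, Sst and Pyy in every group. Chgb made up 9.07% of the summed level per length without insulin and 3.07% in Control-STAM-INS.

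Across the 16 libraries, after each group's mean log2 CPM was subtracted, the 45 pairs of members had a median Pearson r of 0.45, from -0.25 to 0.91. All points share libraries, tissue pieces and depth, so these are descriptions. Chga and Chgb were closest (r = 0.91, Spearman rho = 0.90, and r = 0.93 without the 2 farthest libraries). Sst followed the granins, with r = 0.84 to Chga (Spearman rho = 0.86, and r = 0.83 without the 2 farthest libraries), although its group means differed less. The lowest r was that of Gip and Gcg (r = -0.25, Spearman rho = -0.18), which turned to 0.13 without the 2 farthest libraries.

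**Figure D4:**
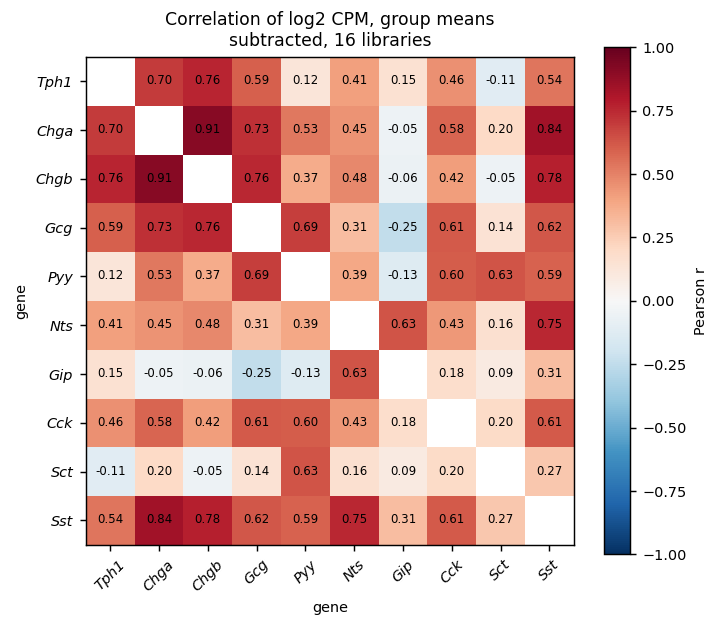
Pearson r between pairs of the 10 genes (rows and columns), from log2 CPM with group means subtracted, n = 16 libraries. Chga and Chgb stand out at 0.91, and the lowest value is -0.25, for Gip and Gcg.

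Among 14086 other genes with a mean of at least 1 CPM, the 3 most alike to Chga were Chgb (r = 0.91), Sst (0.84) and Nrn1 (0.83). Those most alike to Gcg were Extl3 (0.91), Igf1r (0.88) and Zfp59 (0.83). Those most alike to Tph1 were Rapgef5 (0.84), Epas1 (0.84) and Slc16a12 (0.83). Without the 2 farthest libraries these 3 were at 0.79, 0.73 and 0.78. All were picked as the highest of 14086 values over 16 libraries and were not tested, so they are descriptions.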

How the data were processed

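Ileal RNA was sequenced on NovaSeq by a company at the request of the authors. Reads were aligned to GRCm38 (mm10) with CLC Genomics Workbench and deposited as counts per gene, 1 file per library. The strand setting of the counting is not given in the sources used here. Libraries were grouped by their labels. Counts were tested with edgeR 4.0.16 in R 4.3.3 (filterByExpr, TMM, robust quasi-likelihood F test, 3 groups in 1 fit, Benjamini-Hochberg adjustment, threshold 0.05). The SE is the log2 fold change divided by the square root of F. Alternatives used DESeq2 1.42.0, limma 3.58.1, other scalings and filters, and each library left out. The edgeR script was tested on simulated data. Members and gene lists were chosen with earlier results of these data known. From each list the up to 4 genes of largest change that passed were named, or else the most abundant, and for Gcg, Chga and Tph1 the 3 most alike. Exon lengths are from GENCODE M21, in which 22409 of 22872 gene names with a count were found. P-values measure the spread between libraries labelled as biological replicates.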

Additional observations from a re-analysis of the deposited data

How the results depend on the processing

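Tph1, Chgb and Reg4 kept their direction and their call against the untreated controls in Control-STAM-INS under all alternatives that tested them; Tph1 was not tested with at least 10 counts in every library. Genes passing in Control-STAM-INS against Control-STAM-nonINS numbered 1602 (570 higher, 1032 lower), 1526 (669 and 857) with upper-quartile scaling and 1197 (87 and 1110) scaled to epithelial counts, which moved the median log2 fold change of all genes from -0.00432 to -0.222. With 1 library left out they numbered 824 to 1877 and the members 2 to 4, the lowest both without nonINS replicate 1. Between genotypes 34 genes passed, 123 by DESeq2, and 29 to 50 with 1 library left out. For ieIRKO-STAM-INS against Control-STAM-nonINS, 2036 genes (877 higher, 1159 lower) and 3 members passed. There, DESeq2 called 5 members (Gcg and Cck added), epithelial scaling 820 genes (154 higher, 666 lower) and 1 member (Tph1), a fit of only the 2 groups 1038 genes, and leaving out both libraries with the most B cell counts (chosen after seeing the data) 1270 genes (2 members). With upper-quartile scaling 1044 genes were higher and 988 lower. With 1 library left out, 1093 to 2274 genes and 1 to 5 members passed, the lowest without nonINS replicate 1 and the highest number of members without nonINS replicate 2 or ieIRKO-STAM-INS replicate 5. Except where stated, the cause was not tested.

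Same-numbered libraries were not treated as pairs. With group means subtracted, their median r was 0.0245 (4 of 14 pairs over 0.1), against 0.00278 for libraries of different numbers. These values cannot show whether mice shared a litter or were processed together. With a replicate block 5 members passed in each comparison with the untreated group, Sst added in both and Gcg in ieIRKO-STAM-INS.

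Signs turned only for values that did not pass. In controls, Pyy became 0.010 (DESeq2), 0.025 (upper quartile), 0.00059 (no filter), 0.0087 (at least 10 counts), 0.012 (2 groups), 1.987e-07 (voom) and 0.011 (B cell libraries out), and Sct -0.079 (epithelial). Between genotypes, Sst became 0.0029 (upper quartile), 0.15 (epithelial) and 0.079 (B cell libraries out), Pyy 0.079 and Cpe 0.066 (epithelial), and Reg4 -0.0099 (voom). With 1 library left out, values in controls ran from -0.10 to 0.059 for Pyy and -0.17 to 0.065 for Nts. Between genotypes they ran from -0.077 to 0.15 for Chga, -0.018 to 0.25 for Gcg, -0.0053 to 0.69 for Gip, -0.23 to 0.012 for Pyy, -0.16 to 0.067 for Sst, -0.098 to 0.20 for Reg4 and -0.0026 to 0.16 for Insr. Counts were low for Tph1 and Gip, with as few as 9 and 6 in a library.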
